A study of Mus musculus with 8 samples.

Results

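The TGF-beta genes examined were the ligands Tgfb1, Tgfb2 and Tgfb3, the receptors Tgfbr1 and Tgfbr2, the signal transducers Smad2, Smad3 and Smad4, and Thbs1, which encodes thrombospondin-1, an activator of the latent ligand. They were chosen by gene symbol, and all 9 were present among the 750 immune-related genes of the panel. RNA from whole peritoneal tumors was measured with the PanCancer Immune Profiling mouse panel of NanoString, in which color-coded probes are hybridized to each transcript and counted without amplification. The samples were 4 tumors from PBS-treated mice and 4 from mice given RR-CDA, a STING agonist and synthetic cyclic dinucleotide. All mice were wild-type male C57BL/6, aged 7 to 8 weeks when obtained, and carried intraperitoneal tumors of MC38, a murine colon cancer cell line, from 500000 implanted cells. STING agonist-treated mice received 2 intraperitoneal injections of 15 µg RR-CDA at an interval of 3 days from day 7 after implantation, PBS-treated mice received the same volume of PBS, and tumors were collected 10 days after the first injection. The animals of the study came from 2 pooled experiments, and the experiment of each tumor is not given in the sources used here. The labels number the tumors without saying that each came from its own mouse, so p-values measure the spread between these samples.

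TGF-beta is secreted bound to its own propeptide in a latent complex, from which it is freed by integrins, proteases or thrombospondin-1. The free ligand binds the type II receptor, which phosphorylates the type I receptor, and this in turn phosphorylates SMAD2 and SMAD3, which enter the nucleus with SMAD4. In tumors the pathway is known for driving matrix deposition by fibroblasts and for restraining cytotoxic lymphocytes.

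The counts of the 750 genes summed to between 241506 and 414698 per tumor, and the counts of the 9 genes lay between 39 and 1149. The background was 8.62 counts, taken in each sample as the negative control mean with 2 SD added and then averaged. The lowest count among these genes was that of Tgfb2 in treated replicate 1, 39 counts, for which the exact Poisson 95% interval of counting error was 27.7 to 53.3 counts. PBS replicates 2 and 4 differed by less than the sampling noise over 320 genes of 20 to 300 counts (chi-square of 0.499 per degree of freedom), whereas the 11 remaining within-group pairs lay between 5.42 and 14.9. At 1000 counts or more the same 2 samples gave 8.32 (43 genes), and the 11 remaining pairs 54.5 to 376. They were averaged and counted as 1 sample, so that 3 PBS samples were compared with 4 treated samples. Normalized counts are counts divided by the sample's geometric mean of the 20 housekeeping probes, relative to the average of the 7 samples.

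Across the panel, the quasi-likelihood test of edgeR gave 0 of 750 genes (0%) with an adjusted p under 0.05, and the lowest adjusted p was 0.171. The Wald test of DESeq2 gave 44 genes and limma gave 0. At an unadjusted p under 0.05 in edgeR, 133 genes (17.7%) had higher levels after treatment and 10 genes (1.33%) had lower levels, and the median log2 fold change of the 750 genes was 0.21. This split depended on the scaling. TMM normalization gave 87 higher and 40 lower, DESeq2 size factors gave 81 and 45, and the total count gave 68 and 31. The median log2 fold change was then -0.02, -0.04 and 0.01. Scaling on the positive control probes gave 89 higher and 7 lower, with a median of 0.23. Among the TGF-beta genes, 2 of 9 (Tgfb3 and Tgfbr1) were higher at an unadjusted p under 0.05, 0 were lower, and 0 had an adjusted p under 0.05 in edgeR, DESeq2 or limma. Their median log2 fold change was 0.07 with housekeeping scaling and -0.15 with TMM normalization. Treated samples all lay above the PBS samples for 2 of 9 genes, against 126 of 750 genes (16.8%) on the panel, and all below for 0 of 9, against 11 of 750 (1.47%). In bulk RNA a lower level cannot be told apart from fewer cells that make the transcript, nor a higher level from more such cells.

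**Figure D1:**
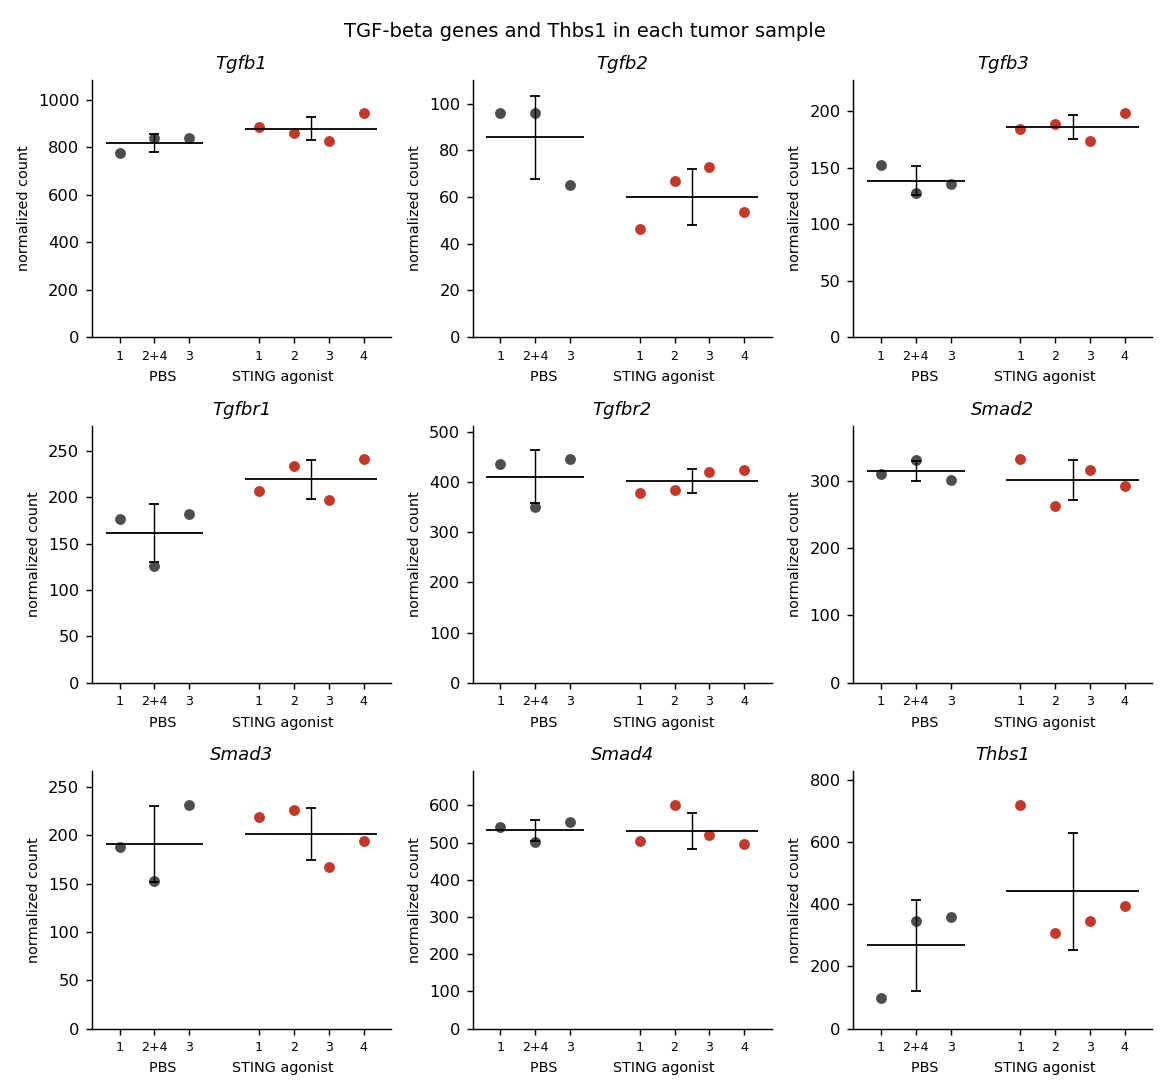
Normalized counts of the 9 genes (vertical axes, each from 0) in the 3 PBS samples (grey) and 4 STING agonist-treated samples (red), with replicate numbers below; horizontal lines are group means and bars are 1 SD. The groups are apart for Tgfb3 and Tgfbr1, Tgfb2 overlaps only through PBS replicate 3, and Thbs1 has a low PBS replicate 1 and a high treated replicate 1.

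The 3 ligands had log2 fold changes of different sign, and none had an adjusted p under 0.05 in edgeR. The ratios of Tgfb2 and of Tgfb3 to Tgfb1, given below, did not pass an adjusted 0.05 either. Tgfb1, the ligand most widely made by leukocytes, was measured at 776, 840 and 841 normalized counts in PBS replicate 1, the averaged replicates 2 and 4, and replicate 3, and at 888, 860, 827 and 944 in treated replicates 1 to 4. The treated values reached slightly higher, with 3 of 4 above every PBS sample, and the groups overlapped through treated replicate 3. Its log2 fold change was 0.10 (SE 0.13, edgeR adjusted p = 0.731), and its sign turned under TMM normalization, DESeq2 size factors and the total count (-0.15, -0.16 and -0.10). It became 0.066 without PBS replicate 1 and 0.067 without treated replicate 4. With housekeeping scaling, the SD of log2 Tgfb1 over the 7 samples was 0.09, which placed it at percentile 1.74 from the least variable end among 517 genes whose mean reached 20 normalized counts. The 95% interval of its fold change ran from 0.881 to 1.31.

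Tgfb2, an isoform known mainly from epithelial, stromal and developmental settings, had the lowest counts of the ligands. It was measured at 95.9, 95.9 and 65.2 normalized counts in the PBS samples and at 46.3, 67.1, 72.7 and 53.8 in treated replicates 1 to 4. PBS replicate 3 lay among the treated samples, and the other PBS samples lay above all 4 of them. The means were 85.7 ± 17.8 (SD, n = 3) and 60.0 ± 12.1 (SD, n = 4), a log2 fold change of -0.51 (SE 0.26), with an unadjusted p of 0.0845 and an adjusted p of 0.332 in edgeR. Relative to the bulk of the panel the difference was larger, with a log2 fold change of -0.77 and an unadjusted p of 0.0354 under TMM normalization. The adjusted p over all alternatives ran from 0.159 to 0.721. The lowest came from all 8 tumors separate, with PBS replicates 2 and 4 counted as 2 samples.

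Tgfb3, the ligand with roles in wound repair and palate fusion, was measured at 152, 128 and 135 normalized counts in the PBS samples and at 184, 189, 173 and 198 in the treated samples. All 4 treated samples lay above all 3 PBS samples, and the treated values were close together. The means were 139 ± 12.5 (SD, n = 3) and 186 ± 10.3 (SD, n = 4), a fold of 1.34 with a 95% interval of 1.04 to 1.73. The edgeR test gave an unadjusted p of 0.0271 and an adjusted p of 0.223. The log2 fold change was 0.42 with housekeeping scaling and 0.18 with TMM normalization (unadjusted p = 0.352), which moved the median of the panel from 0.21 to -0.02. Its adjusted p over all alternatives ran from 0.0843 to 0.635. The lowest came from all 8 tumors separate, which counts the near-identical PBS replicates 2 and 4 as 2 samples.

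Both receptors were measured well above background. Tgfbr1, the type I receptor kinase that phosphorylates SMAD2 and SMAD3, was at 177, 126 and 182 normalized counts in the PBS samples and at 207, 234, 197 and 241 in the treated samples. The groups did not overlap, and the averaged PBS replicates 2 and 4 lay lowest. The means were 162 ± 31.3 (SD, n = 3) and 220 ± 21.0 (SD, n = 4), a fold of 1.36 with a 95% interval of 1.01 to 1.83. In edgeR the unadjusted p was 0.0453 and the adjusted p 0.250. The log2 fold change of 0.44 became 0.21 with TMM normalization (unadjusted p = 0.270) and 0.29 without PBS replicates 2 and 4 (unadjusted p = 0.131).

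Tgfbr2, the type II receptor that binds the ligand, was at 436, 349 and 446 normalized counts in the PBS samples and at 379, 385, 421 and 423 in the treated samples. All treated values lay within the range of the PBS samples. The log2 fold change was -0.03 (SE 0.15), with a 95% interval of the fold from 0.774 to 1.24, and it became -0.13 without PBS replicates 2 and 4 and -0.27 with TMM normalization.

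A ratio of a pair of genes within a sample does not depend on how the sample was scaled. The ratio of Tgfbr2 to Tgfbr1 counts was 2.47, 2.78 and 2.45 in the PBS samples and 1.83, 1.65, 2.13 and 1.75 in the treated samples. Every treated tumor had the lower ratio. The mean log2 ratio was 1.35 ± 0.10 (SD, n = 3) in PBS and 0.87 ± 0.16 (SD, n = 4) in treated tumors, a difference of -0.48, with a two-sided exact permutation p of 0.0571 and 0.143 after adjustment over the 5 ratios computed. The 35 arrangements of 3 against 4 samples allow no p under 0.0286, so 1 ratio alone could not pass an adjusted 0.05.

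The bases before the transcription start of both receptor genes are shown as a description. The receptors were picked because they differed in whether their groups overlapped, and a link between these bases and the levels was not tested. Promoter entries of RefSeq (GRCm38.p6) were found by symbol for 5 of the 9 genes, Tgfb1, Tgfb2, Tgfbr1, Tgfbr2 and Smad3. The 250 bases before the start, read 5′ to 3′ on the gene's strand, lie at chr4:47352972-47353221 (plus strand) for the upstream of 2 Tgfbr1 entries and at chr9:116175364-116175613 (minus strand) for Tgfbr2. Capitals mark GC boxes.
Tgfbr1: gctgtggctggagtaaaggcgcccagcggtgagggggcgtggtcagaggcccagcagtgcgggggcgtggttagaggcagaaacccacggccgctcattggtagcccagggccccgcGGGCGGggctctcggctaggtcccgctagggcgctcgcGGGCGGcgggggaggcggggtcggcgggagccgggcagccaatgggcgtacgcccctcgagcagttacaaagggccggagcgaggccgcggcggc
Tgfbr2: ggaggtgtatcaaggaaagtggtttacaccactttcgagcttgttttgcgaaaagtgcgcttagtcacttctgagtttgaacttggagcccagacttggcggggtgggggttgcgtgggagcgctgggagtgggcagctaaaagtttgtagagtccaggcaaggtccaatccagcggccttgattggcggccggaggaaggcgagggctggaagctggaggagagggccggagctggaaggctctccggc
The letters GGGCGG (GC box) were searched on both strands, and 2 matches were found for Tgfbr1, starting 133 and 95 bases before the start, and 0 for Tgfbr2. The same letters occur in 32.7% of 32851 promoter windows of 250 bases. The letters GAAANNGAA from the interferon-stimulated response element (7.13% of windows), the interferon-gamma-activated sequence TTCNNNGAA (7.02%) and the TATA box TATAAA (12.4%) had 0 matches in either window. Of the ligands, Tgfb1 had 5 GC boxes and 0 TATA boxes in its window, and Tgfb2 had 0 GC boxes and 1 TATA box. Smad3 had 2 GC boxes and 0 TATA boxes. A further Tgfbr1 entry, with a later start, had 0 matches of all 4 motifs. These matches describe letters in the reference sequence, and no binding was measured.

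Smad2 and Smad4 varied little under housekeeping scaling. Smad4, the common partner of the receptor-activated SMADs, was at 541, 502 and 555 normalized counts in the PBS samples and at 503, 601, 521 and 495 in the treated samples. The ranges overlapped, and the extremes on both sides were treated samples. Its log2 fold change was -0.01, with a 95% interval of the fold from 0.800 to 1.24, and it was -0.24 with TMM normalization.

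Smad2 ranged from 302 to 330 normalized counts in the PBS samples and from 263 to 332 in the treated samples, and its log2 fold change was -0.06 (SE 0.15), or -0.32 with TMM normalization and -0.11 to -0.0014 with each sample left out. Smad3 ranged from 153 to 231 and from 167 to 226, a log2 fold change of 0.07 (SE 0.20) that became -0.15 with TMM normalization and -0.06 to 0.24 with each sample left out (the extremes without PBS replicates 2 and 4 and without PBS replicate 3). For all 3 SMADs the groups overlapped, and the adjusted p in edgeR was 0.879 for Smad2, 0.889 for Smad3 and 0.993 for Smad4. The log2 ratio of Smad3 to Smad2 differed by 0.15 between the groups (exact permutation p = 0.543). This became -0.03 without PBS replicates 2 and 4, 0.33 without PBS replicate 3, 0.03 without treated replicate 2 and 0.26 without treated replicate 3. Among the same 517 genes, the SD of log2 Smad4 stood at percentile 3.48, that of Smad2 at 5.22, and that of Tgfbr2 at 6.58, whereas that of Smad3 stood at 24. SMAD activity rests on phosphorylation, which transcript counts do not measure.

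**Figure D2:**
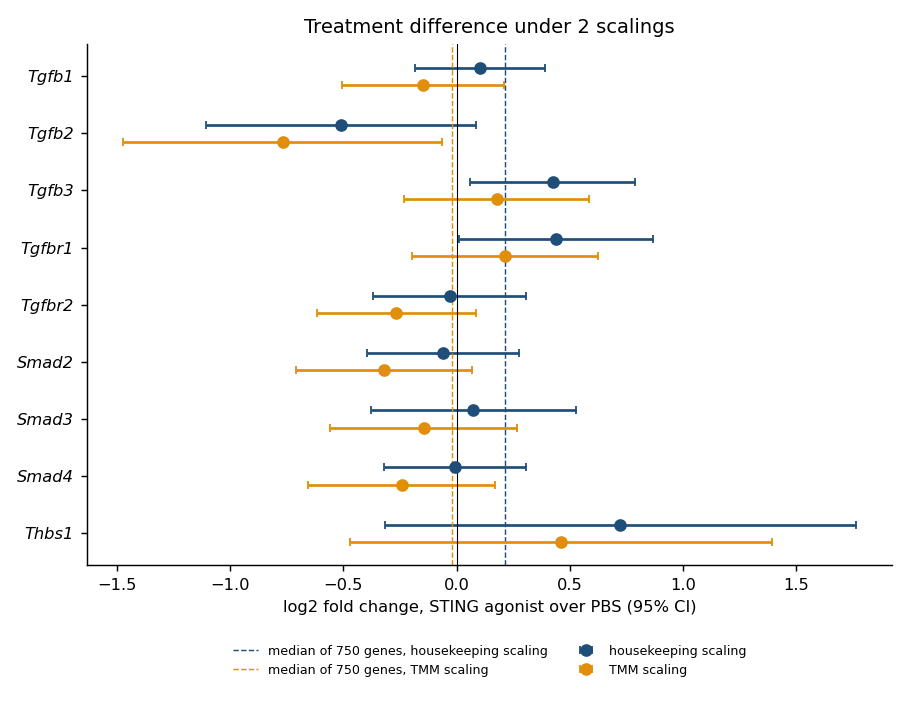
Log2 fold change of STING agonist-treated over PBS samples (points, horizontal axis) with its 95% confidence interval (bars) for each of the 9 genes, under housekeeping scaling (blue) and TMM normalization (orange); dashed lines are the medians of 750 genes. All points lie further left under TMM normalization, where Tgfb1 and Smad3 turn to -0.15 and the interval of Tgfb2 excludes 0.

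The other ligand ratios were read in the same way. The ratio of Tgfb3 to Tgfb1 counts was 0.196, 0.152 and 0.161 in the PBS samples and 0.207, 0.220, 0.210 and 0.210 in the treated samples. All treated tumors lay above all PBS tumors, with PBS replicate 1 close to them. The difference in mean log2 ratio was 0.32, with an exact permutation p of 0.0286, the smallest possible, and 0.143 after adjustment.

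The ratio of Tgfb2 to Tgfb1 counts was 0.124, 0.114 and 0.0775 in the PBS samples and 0.0521, 0.0780, 0.0879 and 0.0570 in the treated samples. PBS replicate 3 again lay among the treated samples. The difference in mean log2 ratio was -0.61 (exact permutation p = 0.143, adjusted p = 0.238).

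**Figure D3:**
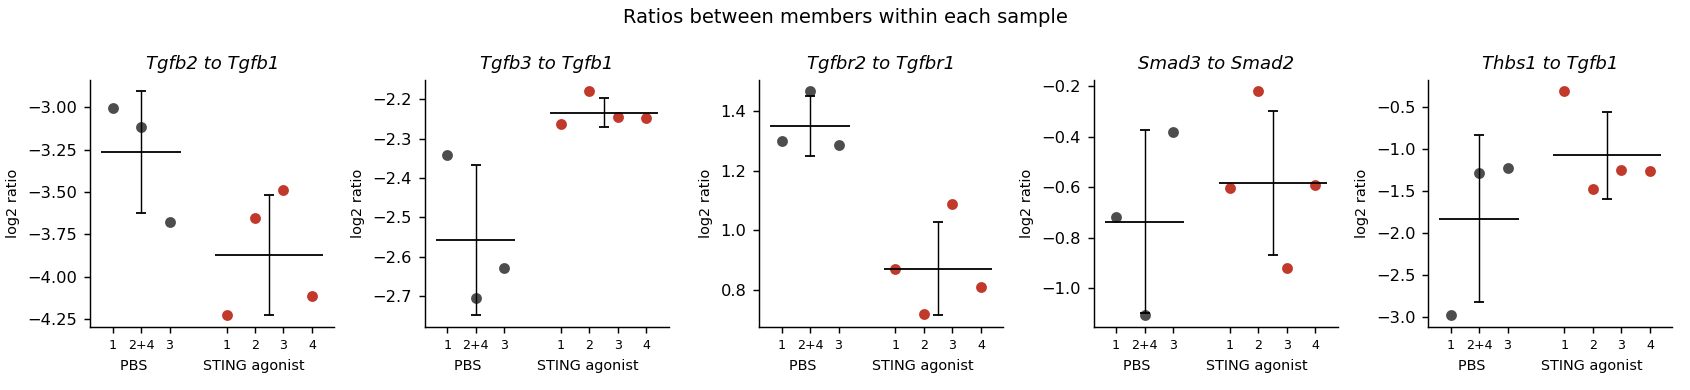
Log2 ratio of the counts of 2 genes, 1 added to each count, within each sample (vertical axes, not starting at 0) for PBS (grey) and STING agonist-treated (red) samples, with group means (lines) and 1 SD (bars). The groups are apart for Tgfb3 to Tgfb1 and for Tgfbr2 to Tgfbr1, and overlap for the other 3 ratios.

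Thbs1 was the most variable of the 9 genes. Its product is a matrix glycoprotein of platelets, macrophages and stromal cells that frees TGF-beta from its latent complex. It was at 97.8, 346 and 359 normalized counts in the PBS samples and at 719, 308, 347 and 394 in treated replicates 1 to 4. PBS replicate 1 was far below and treated replicate 1 far above the rest, and the other 5 samples lay between 308 and 394 with the groups mixed. The means were 268 ± 147 (SD, n = 3) and 442 ± 188 (SD, n = 4), a fold of 1.65 with a 95% interval of 0.802 to 3.40 and an adjusted p of 0.424 in edgeR. The log2 fold change of 0.72 became 0.33 without PBS replicate 1, 0.39 without treated replicate 1, 1.0 without PBS replicate 3 and 0.46 with TMM normalization. The log2 ratio of Thbs1 to Tgfb1 differed by 0.75 (exact permutation p = 0.400), by 0.18 without PBS replicate 1 and by 0.50 without treated replicate 1. Of 6 platelet markers 2 were on the panel, and their summed normalized counts were 26.3, 62.8 and 55.6 in the PBS samples and 28.5, 33.5, 64.4 and 36.8 in the treated samples, mostly from Ppbp. The other marker, Itga2b, was at 2.37 to 13.4 normalized counts, around the background, so the sum rests on Ppbp. It was low in PBS replicate 1, where Thbs1 was lowest, and in treated replicate 1, where Thbs1 was highest. The part of platelets in the Thbs1 counts was not tested.

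The panel genes with profiles most like those of the ligands and Thbs1 were found by the root mean square distance between log2 normalized counts, each centred on its own mean over the 7 samples, among 516 other genes. For Tgfb1 they were Nfkb1 (0.03 log2 units) and Tab1 (0.06), for a median distance of 0.35 over all genes. Tgfb2 was nearest to Txnip (0.17) and Cd99 (0.22), for a median of 0.63. Tgfb3 was nearest to Tap1 (0.08) and Eng (0.09), for a median of 0.37. Thbs1 was nearest to Ccl3 (0.33) and C1s1 (0.35), for a median of 0.77. Tap1, which carries peptides to MHC class I, had means of 1348 and 1753 normalized counts in PBS and treated tumors, with a log2 fold change of 0.38 (adjusted p = 0.217 in edgeR), or 0.12 with TMM normalization, and Txnip, a regulator of thioredoxin, had means of 426 and 309, with a log2 fold change of -0.46 (adjusted p = 0.274 in edgeR). Distances are a description of 7 samples, and flat profiles such as that of Tgfb1 lie close to many genes.

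Wider lists of pathway genes were set beside the panel, where 17.7% of genes had higher and 1.33% lower levels with an unadjusted p under 0.05, and where the median log2 fold change was 0.21. No gene of these lists had an adjusted p under 0.05 in edgeR, as for the panel as a whole. With TMM normalization the median was -0.02 for the panel, -0.09 for latency, release and activation, -0.10 for SMAD partners, -0.10 for kinases and adaptors, 0.01 for matrix targets, -0.36 for lymphocyte targets and -0.19 for Thbs1 receptors. Of 18 genes of latency, release and activation, 7 were on the panel, with a median of 0.13, and 1 was higher at an unadjusted p under 0.05. This was Plau, encoding urokinase, a protease of the plasmin system, at 107, 59.2 and 193 normalized counts in PBS and 300, 229, 136 and 319 in treated samples. Treated replicate 3 lay inside the PBS range and the other 3 lay above it, and its log2 fold change was 1.03 (SE 0.42, edgeR adjusted p = 0.235), or 1.56 without PBS replicate 3. Mmp9, a gelatinase, had a log2 fold change of 0.52 (SE 0.32), which became 0.22 without PBS replicates 2 and 4, 0.30 without treated replicate 2 and 0.33 with TMM normalization.

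Of 18 co-receptors and other superfamily members only Eng was on the panel, and of 10 inhibitors of the pathway 0 were. Eng, encoding endoglin, a TGF-beta co-receptor of endothelial cells, was at 99.7, 74.6 and 100.3 normalized counts in the PBS samples and at 123, 128, 115 and 134 in the treated samples. All treated samples lay above all PBS samples. In edgeR its log2 fold change was 0.45 (SE 0.19, adjusted p = 0.250), and 0.21 with TMM normalization. Of 6 endothelial markers 4 were on the panel, and their summed normalized counts, with Pecam1 most abundant, were 243, 332 and 298 in PBS and 404, 364, 430 and 388 in treated samples, higher in every treated tumor. Only Kdr, chosen for mention after its values were seen, was higher in each treated sample by itself (means 43.4 and 90.5), and Pecam1 overlapped between the groups. The median log2 fold change of the 4 genes was 0.34 with housekeeping scaling and 0.075 with TMM normalization. The part of this list in the level of Eng was not tested.

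Of 15 SMAD partners and coactivators 9 were on the panel, with a median log2 fold change of 0.14, and 1 was higher at an unadjusted p under 0.05. This was Runx1, a transcription factor that cooperates with SMADs, at 202, 169 and 201 normalized counts in PBS and 299, 391, 232 and 347 in treated samples. The groups did not overlap, and the log2 fold change was 0.73 (SE 0.21), with an adjusted p of 0.175 in edgeR and 0.0400 in DESeq2, within a range of 0.0400 to 0.392 over all settings. The AP-1 subunits Fos and Jun, which bind beside SMADs, overlapped between the groups, with log2 fold changes of 0.38 for Fos (SE 0.29) and 0.28 for Jun (SE 0.23). Fos became 0.80 without PBS replicates 2 and 4, 0.23 without PBS replicate 1 and 0.19 without PBS replicate 3, and Jun 0.16 without PBS replicates 2 and 4, 0.45 without PBS replicate 3 and 0.11 without treated replicate 2. With TMM normalization both were 0.07.

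Of 18 kinases and adaptors of the branches that do not use SMADs, 15 were on the panel, with a median of 0.14, and 1 was higher at an unadjusted p under 0.05. Map3k1, a kinase upstream of JNK, was at 29.1, 35.5 and 35.9 normalized counts in PBS and 89.0, 38.5, 49.8 and 56.5 in treated samples. Treated replicate 1 was highest, and treated replicate 2 barely exceeded the PBS samples. In edgeR its log2 fold change was 0.80 (SE 0.34, adjusted p = 0.245), or 0.53 both without treated replicate 1 and with TMM normalization. Pik3cd and Map2k1 followed, at 0.78 (SE 0.42) and 0.33 (SE 0.19). Pik3cd became 0.42 without PBS replicates 2 and 4 and 1.21 without PBS replicate 3, and Map2k1 0.18 without PBS replicate 1 and 0.07 with TMM normalization.

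Transcripts known to respond to TGF-beta differed in the sign of their log2 fold changes. Of 30 matrix and epithelial-mesenchymal transition targets 14 were on the panel, with a median log2 fold change of 0.25. At an unadjusted p under 0.05, 3 were higher and 2 lower. Snai1, a transcription factor of epithelial-mesenchymal transition and an early SMAD target, was at 218, 169 and 181 normalized counts in the PBS samples and at 113, 99.4, 115 and 117 in the treated samples. Every treated tumor lay well below every PBS tumor. The means were 189 ± 25.5 (SD, n = 3) and 111 ± 8.12 (SD, n = 4), for a log2 fold change of -0.77 (SE 0.17), or -1.02 with TMM normalization, and the adjusted p was 0.171 in edgeR, the lowest value on the panel, and 0.0150 in DESeq2, within a range of 0.0150 to 0.384 over all settings.

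Itga1, a collagen-binding integrin subunit, was at 78.0, 85.3 and 83.5 normalized counts in PBS and 129, 119, 103 and 126 in treated samples, and its log2 fold change was 0.54 (SE 0.19, edgeR adjusted p = 0.204). The chemokine gene Ccl2 was at 3405, 5460 and 5773 in PBS and 9131, 6307, 6364 and 8385 in treated samples, with a log2 fold change of 0.63 (SE 0.23, edgeR adjusted p = 0.217). Treated samples lay above PBS samples for both genes, and with TMM normalization the log2 fold changes were 0.29 and 0.37.

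A pair of collagens among these targets had log2 fold changes of opposite sign. Col3a1, the most abundant fibroblast marker here, was at 9418, 8197 and 7272 normalized counts in PBS and 5990, 6779, 5256 and 6767 in treated samples, and its log2 fold change was -0.42 (SE 0.16, edgeR adjusted p = 0.217), or -0.68 with TMM normalization. Col1a1, chosen for mention after its values were seen, was at 953, 545 and 1402 in PBS and 1682, 1873, 1154 and 1718 in treated samples, and its log2 fold change was 0.73 (SE 0.31, edgeR adjusted p = 0.243), or 0.45 without PBS replicates 2 and 4 and 1.0998 without PBS replicate 3. Treated samples were all below PBS samples for Col3a1, and 3 of 4 were above them for Col1a1. Of 10 fibroblast and pericyte markers 5 were on the panel, 0 of them at or under background. Their summed normalized counts, mostly from Col3a1, were 10734, 9196 and 9045 in PBS and 8028, 8949, 6783 and 8839 in treated samples, lower in every treated tumor. The other 4, Col1a1 among them, summed to 1316, 1000 and 1773 in PBS and 2038, 2170, 1526 and 2072 in treated samples, so that the sums follow Col3a1 and Col1a1, the most abundant of the list. Pdgfrb was also below every PBS sample in all 4 treated samples (means 124 and 101), and Fap was so in 3 of 4 (means 92.9 and 57.1). Thy1, the remaining gene, overlapped between the groups (means 179 and 187), with a log2 fold change of 0.06 (SE 0.18). Pdgfrb, Fap and Thy1 were chosen for mention after their values were seen. The median log2 fold change of the 5 genes was -0.30, or -0.57 with TMM normalization. The log2 fold change of Fap, -0.69, became -0.24 without PBS replicates 2 and 4 and -1.06 without treated replicate 3. The part of these markers in the levels of Tgfb2 and Snai1 was not tested.

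**Figure D4:**
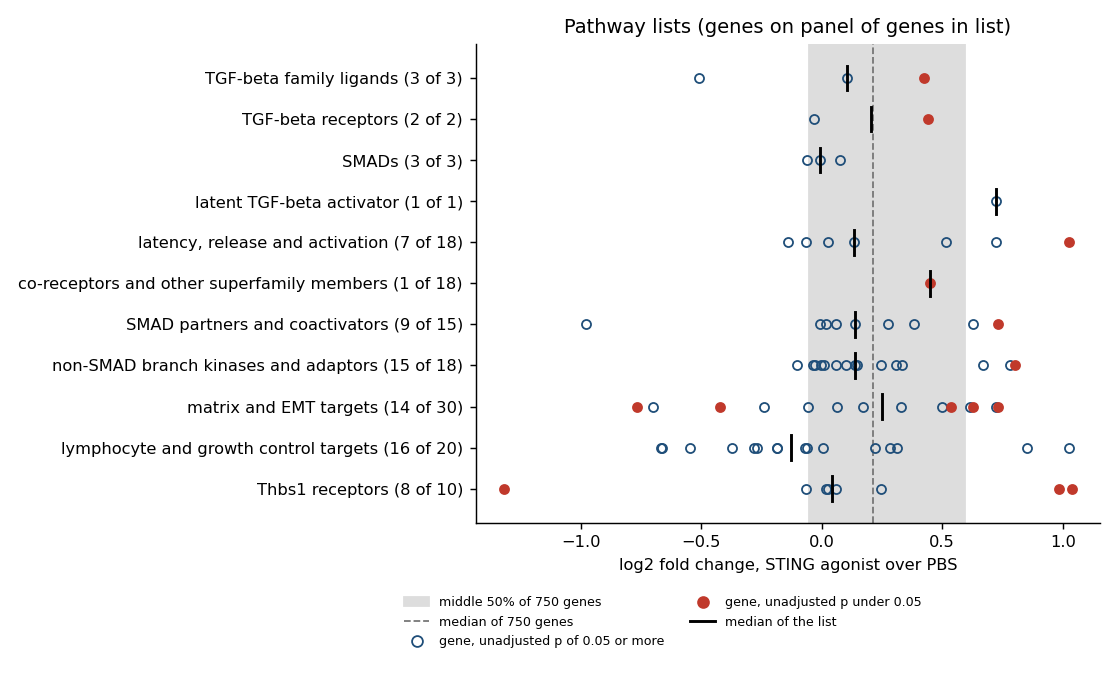
Log2 fold change of each panel gene (circles, filled where the unadjusted edgeR p is under 0.05) in 11 lists of TGF-beta pathway genes, with the median of each list (black bars), the median of 750 genes (dashed line) and the middle 50% of 750 genes (grey). Lists differ in length, and filled circles lie on both sides of 0 among the matrix and EMT targets and, through Cd163 alone, among the Thbs1 receptors.

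Of 20 targets in lymphocytes and growth control 16 were on the panel, 7 of them at a mean of at least 20 normalized counts. The median log2 fold change was -0.13 over the 16 genes and -0.06 over those 7, and 0 of the 16 had an unadjusted p under 0.05. Prf1, encoding perforin, which TGF-beta is known to repress, was at 232, 230 and 236 normalized counts in PBS and 155, 107, 245 and 210 in treated samples. The PBS samples were nearly equal, and 3 of 4 treated samples lay below them (log2 fold change -0.37, SE 0.27). It became -0.19 without treated replicate 2, -0.56 without treated replicate 3 and -0.63 with TMM normalization. Gzmb, the granzyme B gene, had a log2 fold change of 0.31 (SE 0.25), or 0.16 without PBS replicate 1 and 0.48 without treated replicate 2. That of Ikzf2 was 0.28 (SE 0.33), or 0.11 without PBS replicates 2 and 4, 0.49 without PBS replicate 1 and 0.14 without treated replicate 4. With TMM normalization it was 0.05 for Gzmb and 0.04 for Ikzf2.

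Of a list of 10 receptors set beside Thbs1, 8 were on the panel, with a median log2 fold change of 0.04. At an unadjusted p under 0.05, 2 were higher and 1 lower. The lower one was Cd163, a hemoglobin scavenger receptor of macrophages that is not an established receptor for thrombospondin-1 and is also among the macrophage markers. Without it the median of the other 7 was 0.06, with 2 higher and 0 lower. Cd36, a scavenger receptor through which thrombospondin-1 acts on endothelial cells, was at 87.4, 102 and 146 normalized counts in PBS and 310, 158, 181 and 239 in treated samples. All treated tumors exceeded all PBS tumors, and treated replicate 1, highest in Thbs1, was also highest in Cd36. Cd36 had a log2 fold change of 0.98 (SE 0.29), with an adjusted p of 0.181 in edgeR and 0.0399 in DESeq2, within a range of 0.0399 to 0.408 over all settings. Itga4 was at 24.4, 8.29 and 31.5 in PBS and 51.0, 32.3, 43.6 and 52.0 in treated samples, a log2 fold change of 1.04 (SE 0.44) that became 0.67 without PBS replicates 2 and 4, and Cd163 was at 44.2, 18.9 and 64.4 and at 9.49, 16.1, 21.8 and 20.6, a log2 fold change of -1.32 (SE 0.46), all in normalized counts. The adjusted p in edgeR was 0.247 for Itga4 and 0.207 for Cd163, and the averaged PBS replicates 2 and 4 had the lowest PBS value of both. For Itga4 all 4 treated samples lay above the PBS samples, and for Cd163 2 of 4 lay below them.

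Markers of the cells a tumor can hold were read beside these results. Of 4 leukocyte markers 3 were on the panel, and their summed normalized counts, mostly from Itgb2, were 293, 184 and 348 in PBS and 598, 425, 394 and 623 in treated samples. Every treated tumor was higher, as for Tgfb3 and Tgfbr1, and the part of leukocyte content in those genes was not tested. The 8 T cell markers summed to 196, 122 and 212 in PBS and 445, 237, 235 and 412 in treated samples, again higher in every treated tumor, with Cd3d most abundant in PBS (mean 66.1), Cd3g in treated tumors (mean 104), and Cd4 and Cd2 at or under background. The 8 macrophage markers summed to 1679, 1053 and 2447 in PBS and 2396, 1594, 1985 and 2310 in treated samples, with Cd68 most abundant, and the groups overlapped. The sum joins genes that differed in sign, with an unadjusted p under 0.05 for 1 higher gene, Emr1, and for 2 lower genes, Marco and Cd163. Emr1, encoding F4/80, had a log2 fold change of 1.29 (SE 0.43), Csf1r of 0.96 (SE 0.48) and Marco of -1.33 (SE 0.57), and for Emr1 and Csf1r each treated sample exceeded each PBS sample. Emr1, Csf1r and Marco were chosen for mention after their values were seen. Csf1r became 0.51 without PBS replicates 2 and 4, and Marco -0.48 without PBS replicate 3. PBS replicates 2 and 4, lowest in Tgfb3, Tgfbr1, Tgfbr2 and Smad3, were also lowest in leukocyte, T cell and macrophage markers, which was not tested as a source of those values. With TMM normalization the median log2 fold change went from 0.84 to 0.63 for the leukocyte markers, from 0.73 to 0.51 for the T cell markers and from 0.19 to -0.07 for the macrophage markers.

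Other marker lists overlapped between the groups. Regulatory T cell markers (5 of 5 on the panel, with Il2ra most abundant) had mean sums of 154 and 149 normalized counts in PBS and treated tumors, with Foxp3 and Tnfrsf18 at or under background. The mesothelial marker Msln (1 of 4) had means of 163 and 119, a log2 fold change of -0.45 that became -0.06 without PBS replicates 2 and 4, -0.71 without PBS replicate 1 and -0.73 with TMM normalization. The labels give the tissue as colon, and of 8 epithelial and colon markers 4 were on the panel, with Cdh1 most abundant in PBS (mean 29.4), Muc1 and Cdh1 nearly equal in treated tumors (means 18.62 and 18.04), and sums of 34.8 to 82.7 normalized counts. The epithelial marker Epcam ranged from 3.76 to 17.8 normalized counts in the 7 samples, around the background, so this panel gives no check of the epithelial identity of the tumors beyond these low counts.

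Treated replicate 4 stood apart in hepatocyte transcripts. Of 12 hepatocyte markers 7 were on the panel, and their summed normalized counts were 162, 141 and 272 in PBS and 260, 366, 300 and 1821 in treated samples. Serping1, which stromal cells also make, was the most abundant over all samples, and Ambp, chosen for mention after its values were seen, was at 775 normalized counts in treated replicate 4 and at 2.48 to 11.9 in the other 6 samples. Without treated replicate 4 the log2 fold change was 0.39 for Tgfb3, 0.39 for Tgfbr1, -0.46 for Tgfb2 and 0.77 for Thbs1, close to the values with it. In edgeR 0 of 9 genes then had an unadjusted p under 0.05. On the panel 79 of 750 genes were then higher and 10 lower at that p, against 133 and 10 with all 7 samples. The count of 2 among the 9 genes became 0 also without treated replicate 1 or without PBS replicates 2 and 4. The panel then had 77 higher and 7 lower, and 90 and 17. The count was 1 (Tgfb3) without PBS replicate 1, treated replicate 2 or treated replicate 3, where the panel had 93 and 11, 136 and 9, and 135 and 21. Without PBS replicate 3 the count was 2 (Tgfb2 and Tgfbr1), and the panel had 153 higher and 7 lower.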

How the data were processed

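Whole-tumor RNA was extracted with TRIzol and measured on the nCounter panel. The authors deposited the count of each of 784 probes per tumor (750 genes, 20 housekeeping, 8 negative and 6 positive control probes), as whole numbers without scaling or background subtraction. The study names nSolver and R for its own housekeeping normalization, with versions not given in the sources used here.

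The edgeR 4.0.16 package under R 4.3.3 fitted a quasi-likelihood model to all 750 genes without a filter or covariate. Library sizes were the geometric means of the housekeeping probes, and p was adjusted over all genes (Benjamini-Hochberg). This scaling is sound only if treatment leaves the housekeeping transcripts alone, while TMM normalization takes out any shift shared by most of the panel. Ratios of (count + 1) were compared by two-sided exact permutation (Python 3.11.15, scipy 1.17.1). DESeq2 1.42.0, limma 3.58.1 and other scalings, filters, pseudocounts and sample choices were alternatives. The edgeR test and the permutation test were also run on simulated data, with outcomes that are not reported here.

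Named genes were all members, up to 3 genes per pathway list with the lowest unadjusted p among those with a mean of at least 20 normalized counts, the most abundant gene and those at or under background per marker list, and the 2 nearest profiles of Tgfb1, Tgfb2, Tgfb3 and Thbs1. Members and lists were chosen with earlier results of these data known. List genes were matched to panel genes through a RefSeq table (GRCm38.p6), in which 727 panel genes matched by transcript, 16 by symbol, 1 by an older symbol and 6 not at all. Protein, phosphorylation and single-cell measurements were not analysed here. The result of 1 planned marker list is not reported here.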

Additional observations from a re-analysis of the deposited data

Results flagged for a closer look

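In the group of 4 treated samples, the gap between an extreme value and its nearest neighbor was set against the range of the group for 50 values, the normalized counts of the genes that the naming rule selects and the ratios, and a gap above Dixon's critical value at 95% was listed. Chance lists about 1 in 20 such groups, 2.5 of 50, and 2 were listed, none of them a TGF-beta gene or a ratio. Gzmb was lowest in treated replicate 2 (171 normalized counts, against 296 to 314 in the other 3), a gap of 0.873 of the range. Ppbp was highest in treated replicate 3 (56.1 normalized counts, against 23.3 to 26.1), a gap of 0.915 of the range. Outside that rule, Thy1 was not examined, and 1 of 8 other genes mentioned after their values were seen was past the value. This was Ambp, highest in treated replicate 4 (775 normalized counts, against 2.48 to 11.9), a gap of 0.988 of the range, and since it was picked for that value the number expected by chance does not cover it. The groups of 3 PBS samples, with the low Thbs1 value of PBS replicate 1, were not examined in this way.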

How the results depend on the processing

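No TGF-beta gene reached an adjusted p under 0.05 in any of 22 alternatives, and Tgfb2, Tgfb3, Tgfbr1, Smad2 and Thbs1 kept their direction in all of them. The number of the 9 genes with an unadjusted p under 0.05 was 2, and became 1 with TMM normalization, DESeq2 size factors or the total count (Tgfb2 in each) and with limma at a pseudocount of 1 or 0.1 (Tgfb3), 0 with the positive control probes as scale, 0 without PBS replicates 2 and 4, 0 to 2 with each other sample left out, and 3 with all 8 tumors separate (Tgfb2, Tgfb3 and Tgfbr1). The panel counts in these settings are given below. The fit of 8 separate tumors counts the near-identical PBS replicates 2 and 4 as 2 samples. What caused the changes in the count was not tested.

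Signs turned for some values. Under TMM normalization, DESeq2 size factors and the total count the log2 fold change was -0.15, -0.16 and -0.10 for Tgfb1, -0.15, -0.16 and -0.13 for Smad3, -0.20, -0.21 and -0.15 for Nfkb1, and -0.10, -0.12 and -0.056 for Tab1, and under the first and second of these -0.0013 and -0.014 for Pecam1. With the positive control probes it was 0.0034 for Tgfbr2 and 0.037 for Smad4, and with all 8 tumors separate 0.018 and 0.012. Without PBS replicates 2 and 4 it was -0.061 for Smad3 and 0.074 for Ppbp, and the difference in the log2 ratio of Smad3 to Smad2 was -0.032. With each other sample left out it ran from -0.057 to 0.033 for Tgfbr2 and from -0.074 to 0.024 for Smad4. TMM normalization, DESeq2 size factors and the total count remove the shift of the panel by construction, and the causes of the other turns were not tested. All other ratio values kept their sign in 12 alternatives, with 0 adjusted p under 0.05.

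On the panel, the count at an adjusted p under 0.05 was 0 in edgeR and 44 in DESeq2, and 0 to 7 with each sample left out (7 without treated replicate 3, 1 without PBS replicate 3). At an unadjusted p under 0.05, 133 genes were higher and 10 lower. These became 87 and 40 with TMM normalization, 81 and 45 with DESeq2 size factors, and 68 and 31 with the total count. With the positive control probes as scale they were 89 and 7. In limma they were 131 and 13 at a pseudocount of 1, and 130 and 13 at 0.1. An equal-variance t-test, the type of test the study names, on the same 3 against 4 samples gave 87 higher. All 8 tumors separate gave 186 and 15, and 17 were lower without PBS replicates 2 and 4. With each other sample left out, 77 to 153 were higher and 7 to 21 lower.

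The labels give PBS and treated tumors the same replicate numbers, but deviations of same-numbered tumors from their group means correlated at -0.06, -0.08, -0.28 and -0.13, so the numbers were not taken to pair them. With all 8 tumors separate and a replicate block, the log2 fold change was 0.026 for Tgfbr2 and 0.0093 for Smad4, the unadjusted p was 0.0436 for Tgfb3 and 0.0464 for Tgfbr1, and 159 panel genes were higher and 13 lower. Against the same 8 tumors without the block, the unadjusted p of Tgfb2 went from 0.0368 to 0.0991, so that 3 of the 9 genes under 0.05 became 2. No adjusted p was under 0.05 in either fit.

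The 3 against 4 samples, the unknown experiment of each tumor, the counts of 39 to 102 for Tgfb2 and the choice of scaling limit these comparisons. Transcript counts give neither ligand activation nor SMAD phosphorylation.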
